A study of Mus musculus with 6 samples.

Results

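Vitamin A is carried in blood by retinol-binding protein, taken into cells by a membrane receptor, and oxidised in 2 steps by dehydrogenases to retinoic acid, which then acts through nuclear receptors. The 9 genes described here encode proteins of that route: the carriers Rbp2 and Rbp4, the retinol receptor Stra6, the retinal dehydrogenases Aldh1a1, Aldh1a2 and Aldh1a3, the retinoic acid-binding proteins Crabp1 and Crabp2, and the retinal reductase Dhrs3. They were chosen by name from 19938 genes measured, with earlier results of these data known. All 9 were found, each on 1 row of the array annotated to that gene alone. In the developing gut, mesenchyme and the outer mesothelial layer are known sources of retinoic acid through Aldh1a2, and the epithelium later handles dietary vitamin A with Rbp2.

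The study measured gene expression in mouse embryonic intestine at day E14.5, before villi form, to look for genes through which the zinc-finger transcription factor KLF5 acts. Klf5-deleted embryos (Klf5D/D) were compared with controls (Klf5wt/wtShhEGFP/Cre+), which had both wild-type copies of Klf5 and carried the ShhEGFP/Cre allele, a Cre recombinase under the control of Shh, a gene of the gut epithelium. The Cre allele of the deleted embryos is not named in their labels. The strain was mixed, in part C57Bl/6, in both groups. Each group had 3 samples, each a pool of 2 intestines, from a segment about 1.5 cm anterior to the cecum, and each pool was hybridised to 1 Affymetrix Mouse Gene 1.0 ST array. The sources used here do not say if different litters gave the pools, and p-values therefore refer to the spread from pool to pool. Values are log2 signals normalised with RMA by the authors, and a difference is Klf5-deleted minus control on that scale.

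The array medians over all rows lay between 7.81 and 7.89. Klf5 itself had 10.24, 10.49 and 10.34 in the Klf5-deleted arrays, against 11.55, 11.74 and 11.77 in the controls. Of 13 epithelial marker genes, 13 were lower in the Klf5-deleted arrays at a limma adjusted p under 0.05, as were 8.58% of all genes. The summed linear signal of the 13 was 19441 to 22939, against 39171 to 40394 in the controls. The 5 markers of intestinal epithelium, Cdx2 and Vil1 among them, were present in both groups, and all 5 were lower, with log2 differences of −2.16 to −0.62. RNA came from whole intestine, so fewer cells of a type and less RNA per cell cannot be told apart. The groups also differed in the sex of the pooled embryos. A male share computed from the Y-linked genes Eif2s3y, Kdm5d and Uty was 103%, 102% and 95.2% in the Klf5-deleted arrays, on a scale that sets the mean of these arrays at 100% and the lowest array at 0%, against 0%, 46.7% and 41.5% in the controls.

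Promoter sequence, the stretch around a transcript start, is shown for 4 of the genes. Rbp4, Crabp1 and Aldh1a2 rose, and Rbp2 did not pass the test. RefSeq promoter windows (build GRCm38.p6, 250 bases before to 50 bases after a transcript start) matched 7 of the 9 genes, with 14 windows in all. Capitals mark the letters CACCC, the core of the box bound by Krüppel-like factors, GGGCGG, the GC box, and the nuclear receptor half-sites AGGTCA and AGTTCA, each on either strand. No 2 different motifs overlap in these 4 windows.
Rbp4, chr19:38124762-38125061, minus strand: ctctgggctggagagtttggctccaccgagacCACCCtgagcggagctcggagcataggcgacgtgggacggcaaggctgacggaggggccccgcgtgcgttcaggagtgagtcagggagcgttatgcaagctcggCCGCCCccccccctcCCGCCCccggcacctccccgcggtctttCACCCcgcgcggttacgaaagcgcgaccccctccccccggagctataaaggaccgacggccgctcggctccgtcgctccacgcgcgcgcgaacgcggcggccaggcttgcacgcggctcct
Aldh1a2, chr9:71215539-71215838, plus strand: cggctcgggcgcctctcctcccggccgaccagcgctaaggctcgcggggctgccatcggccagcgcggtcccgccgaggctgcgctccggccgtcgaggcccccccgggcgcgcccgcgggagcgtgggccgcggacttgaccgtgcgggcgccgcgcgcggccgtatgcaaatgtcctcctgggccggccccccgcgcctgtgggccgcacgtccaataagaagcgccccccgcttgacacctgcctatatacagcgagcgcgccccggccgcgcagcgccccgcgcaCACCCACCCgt
Crabp1, chr9:54764498-54764797, plus strand: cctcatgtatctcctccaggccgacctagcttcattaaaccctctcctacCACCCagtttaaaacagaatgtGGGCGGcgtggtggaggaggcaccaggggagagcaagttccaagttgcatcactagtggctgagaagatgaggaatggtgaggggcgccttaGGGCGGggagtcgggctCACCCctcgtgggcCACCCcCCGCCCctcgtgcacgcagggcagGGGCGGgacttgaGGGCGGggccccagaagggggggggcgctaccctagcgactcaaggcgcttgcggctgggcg
Rbp2, chr9:98490287-98490586, plus strand: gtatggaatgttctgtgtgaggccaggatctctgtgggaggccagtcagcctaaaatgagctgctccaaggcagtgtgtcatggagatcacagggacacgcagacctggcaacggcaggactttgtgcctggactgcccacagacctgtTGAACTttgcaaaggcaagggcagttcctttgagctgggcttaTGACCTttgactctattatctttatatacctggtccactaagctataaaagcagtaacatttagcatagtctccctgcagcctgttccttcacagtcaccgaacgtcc
The Crabp1 window held 3 matches to CACCC and 5 to GGGCGG, and the Rbp4 window held 2 of each. The Aldh1a2 window held 2 matches to CACCC, which share a base and lie at its downstream end. The Rbp2 window held 0 matches to either of those and 1 to each half-site. Stra6 had 4 windows, not shown, of which 3 held CACCC, 3 held GGGCGG and 1 held AGTTCA. Both Aldh1a1 windows and a second Rbp4 window, chr19:38125272-38125571, held none of the 4 motifs and are not shown. This second Rbp4 window covers the upstream end of the annotated gene, at 38125321. The Rbp4 window shown lies downstream of that end, within the gene. Dhrs3 did not pass the test either, and 1 of its windows, not shown, held CACCC. Over the 14 windows, 7 held CACCC, 5 held GGGCGG, 1 held AGGTCA and 2 held AGTTCA. Among all 32851 mouse promoter windows the shares were 57.5%, 35.7%, 16.3% and 14.0% in the same order. A match is a description of the letters and not a measured binding site.

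Of the 9 genes, 6 rose in the Klf5-deleted intestine at a Benjamini-Hochberg adjusted p of 0.05 (limma, adjusted over 19938 genes), and 0 fell (1, Aldh1a3, was lower at an unadjusted p under 0.05). Over all genes 8.95% passed the test as higher and 8.58% as lower, 17.5% in either direction. The 6 were Rbp4, Crabp1, Stra6, Aldh1a2, Crabp2 and Aldh1a1, in order of their difference, with rises of 0.92 to 0.30 on the log2 scale. The median difference of the 9 genes was 0.41, against 0.02 over all genes. The arrays of the groups did not overlap for 7 of the 9 genes, 6 higher and 1 lower in Klf5-deleted, where 20.1% of all genes were separated as higher and 15.9% as lower. For these 7 genes a two-sided exact permutation test had p = 0.1, the smallest value that 3 arrays against 3 allow.

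**Figure D1:**
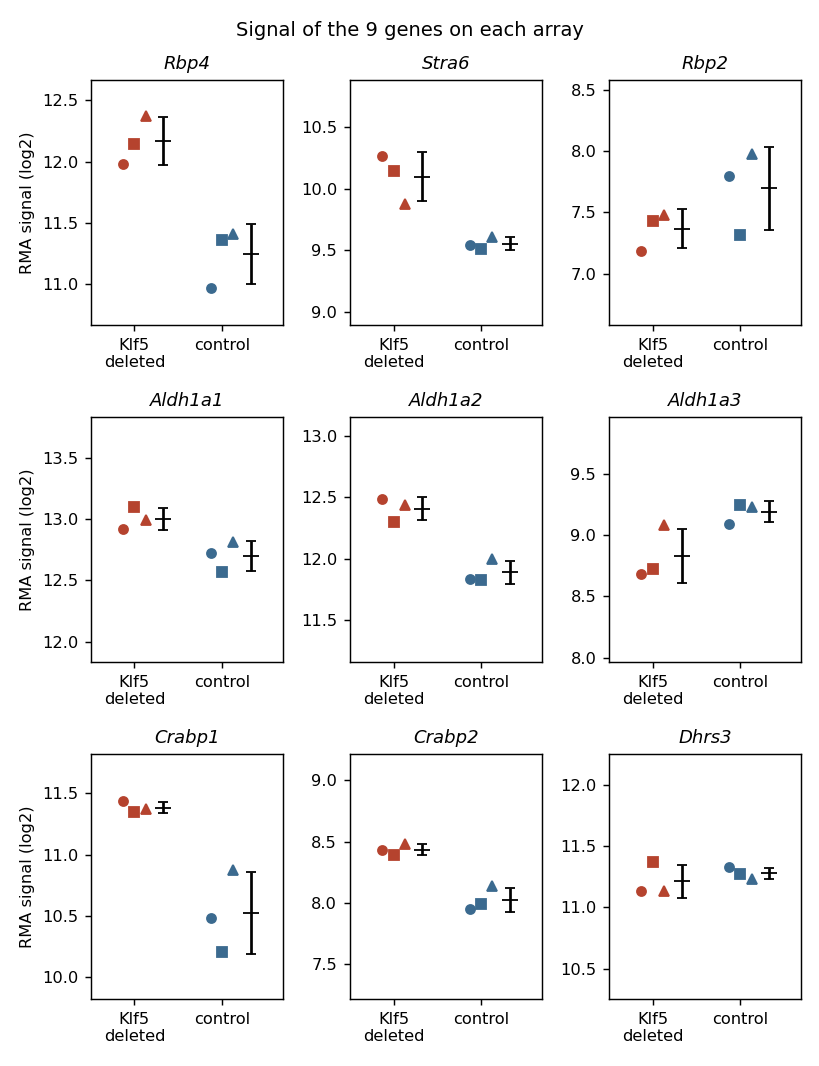
RMA signal on the log2 scale for the 9 genes, with 3 Klf5-deleted arrays (red) left of 3 control arrays (blue). Marker shape gives the replicate number (circle 1, square 2, triangle 3), which was not used to pair the groups in the main fit. Bars are mean ± SD (n = 3). Every panel spans the same number of log2 units. The groups are apart in 7 panels and overlap for Rbp2 and Dhrs3.

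Among the carriers and the receptor, Rbp4, the protein that carries retinol in blood, had the largest rise of the 9. Its signal was 11.98, 12.14 and 12.37 in the Klf5-deleted arrays, against 10.97, 11.36 and 11.41 in the controls. Every Klf5-deleted array lay above every control, and control replicate 1 was the lowest. The means were 12.16 ± 0.20 in Klf5-deleted and 11.25 ± 0.24 in control intestine (SD, n = 3 each), a 1.89-fold rise (log2 difference 0.92, SE 0.14, limma adjusted p = 0.00449). Rbp4 is also a gene of liver, so liver markers are given beside it. Of 6 liver genes 0 passed in either direction by limma, and 0 had an unadjusted p under 0.05. Alb, the gene of serum albumin, had 8.47, 12.53 and 11.50 in the Klf5-deleted arrays, against 10.85, 11.12 and 11.81 in the controls. Klf5-deleted replicate 1 had the least Alb of the 6 arrays and, at 11.98, the lowest Rbp4 of the Klf5-deleted arrays. That Rbp4 value was still above all controls. The highest Alb, 12.53, was in Klf5-deleted replicate 2, and the highest Rbp4, 12.37, in Klf5-deleted replicate 3. In the controls, Alb and Rbp4 both increased from replicate 1 to replicate 3. The part of liver tissue in the rise of Rbp4 was not tested.

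Stra6 encodes the membrane receptor that takes up retinol from RBP4. It had 10.27, 10.14 and 9.88 in the Klf5-deleted arrays, against 9.54, 9.51 and 9.61 in the controls. The controls lay close together, and the lowest Klf5-deleted array was still above all of them. Stra6 rose 1.46-fold (log2 difference 0.54, SE 0.10, limma adjusted p = 0.00872).

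Rbp2, the retinol-binding protein inside absorptive enterocytes, had 7.19, 7.43 and 7.48 in the Klf5-deleted arrays, against 7.80, 7.32 and 7.97 in the controls. The groups overlapped, as control replicate 2 lay among the Klf5-deleted values. The log2 difference was −0.33 (SE 0.16, 95% interval −0.71 to 0.05, limma adjusted p = 0.228). Without control replicate 2 it was −0.52 and passed (limma adjusted p = 0.0295).

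The 3 retinal dehydrogenases make retinoic acid from retinal. Aldh1a2, the main enzyme of this step in early embryos, had 12.48, 12.30 and 12.44 in the Klf5-deleted arrays, against 11.84, 11.83 and 12.00 in the controls. The groups were apart, with the same spread in both (SD 0.09, n = 3 each). Aldh1a2 rose 1.44-fold (log2 difference 0.52, SE 0.07, limma adjusted p = 0.00265), the smallest adjusted p of the 9.

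Aldh1a2 is itself used as a gene of mesothelium, the cell layer that covers the gut, so markers of that layer are given with it. Of 8 mesothelial markers, 7 rose and 1, Msln, fell, where 8.95% of all genes passed as higher and 8.58% as lower. Wt1, a transcription factor of mesothelium, was 0.87 higher (SE 0.18) and Upk3b, a surface plaque protein, 0.50 higher (SE 0.13). The summed linear signal of the 8 was 8301 to 11097 in the Klf5-deleted arrays, against 5125 to 6839 in the controls. Klf5-deleted replicate 1 had the highest sum and also the highest Aldh1a2, while control replicate 3 had the lowest sum of all and the highest Aldh1a2 of the controls. The part of mesothelium in the rise of Aldh1a2 was not tested.

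Aldh1a1 had 12.92, 13.10 and 12.99 in the Klf5-deleted arrays, against 12.72, 12.57 and 12.81 in the controls. The groups were apart, by a narrow margin. It rose 1.23-fold (log2 difference 0.30, SE 0.08, limma adjusted p = 0.0328). The call was lost without Klf5-deleted replicate 2 (0.25, limma adjusted p = 0.0905) or 3 (0.31, limma adjusted p = 0.0840) and without control replicate 1 (0.31, limma adjusted p = 0.0756) or 2 (0.24, limma adjusted p = 0.0936). It was also lost with arrays centred on their medians (0.28, limma adjusted p = 0.0532). Aldh1a7, a close paralog of Aldh1a1 that can share its probes, rose by 0.65 (SE 0.12), so the value of either copy is uncertain.

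Aldh1a3, the third enzyme of the family, had a difference of the other sign that missed the threshold. It had 8.68, 8.72 and 9.08 in the Klf5-deleted arrays, against 9.09, 9.25 and 9.23 in the controls. All Klf5-deleted values were below all control values, but Klf5-deleted replicate 3 was almost level with control replicate 1. The log2 difference was −0.36 (SE 0.11, 95% interval −0.61 to −0.11), with a limma adjusted p of 0.0592. It passed without Klf5-deleted replicate 3 (−0.49, limma adjusted p = 0.00741), and with the lowest 25% of genes left out (limma adjusted p = 0.0484).

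CRABP1 and CRABP2 bind retinoic acid in the cytoplasm: CRABP2 delivers it to nuclear receptors, and CRABP1 is linked to its breakdown. Crabp1 had 11.43, 11.34 and 11.38 in the Klf5-deleted arrays, against 10.49, 10.21 and 10.88 in the controls. The Klf5-deleted arrays were nearly alike (SD 0.05, n = 3), whereas the controls spread widely (SD 0.34, n = 3), and the groups were apart. Crabp1 rose 1.82-fold (log2 difference 0.86, SE 0.15, limma adjusted p = 0.00805).

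Crabp2 had 8.43, 8.39 and 8.48 in the Klf5-deleted arrays, against 7.95, 7.99 and 8.14 in the controls. It rose 1.33-fold (log2 difference 0.41, SE 0.06, limma adjusted p = 0.00435), and the groups were apart. Crabp1 is also expressed in neural crest. Of 5 enteric neuron and glia markers measured 2 rose, Foxd3 by 0.34 and Sox10 by 0.39, where 8.95% of all genes passed as higher. At an unadjusted p under 0.05 by limma 3 were higher, Ret among them, and 0 lower. The summed linear signal of the 5 was 4379 to 5063 in the Klf5-deleted arrays, against 3695 to 4205 in the controls. Of 8 fibroblast markers 2 rose, Pdgfra by 0.26 and Foxf1 by 0.25, beside the same share of 8.95%. At an unadjusted p under 0.05 by limma 4 were higher, Col1a1 and Col3a1 among them, and 0 lower. The summed signal of the 8 was 33665 to 35481 in the Klf5-deleted arrays, against 30579 to 32055 in the controls. The part of these cells in the rises of Crabp1 and Crabp2 was not tested.

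DHRS3 turns retinal back into retinol and so limits retinoic acid. Dhrs3 had 11.14, 11.37 and 11.13 in the Klf5-deleted arrays, against 11.33, 11.27 and 11.23 in the controls. The groups overlapped, and the log2 difference was −0.06 (SE 0.07, 95% interval −0.24 to 0.11, limma adjusted p = 0.635).

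**Figure D2:**
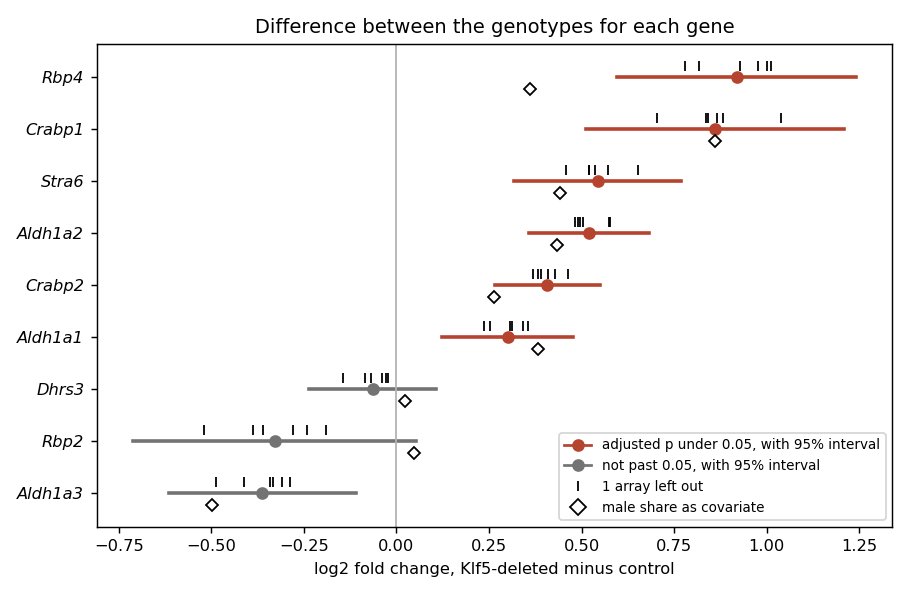
Log2 fold change, Klf5-deleted minus control, for the 9 genes (circles) with limma's 95% interval (lines), in red for the 6 genes past an adjusted p of 0.05. Ticks above each line are the values with 1 array left out, and open diamonds below it are the values of a fit with the male share as covariate. For Rbp4 the diamond, at 0.36, lies outside the interval of 0.60 to 1.24.

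When the fit included the male share of each pool, 0 of the 6 rises passed by limma, and 0 had an unadjusted p under 0.05. The log2 differences were then 0.36 for Rbp4, 0.86 for Crabp1, 0.44 for Stra6, 0.43 for Aldh1a2, 0.26 for Crabp2 and 0.38 for Aldh1a1. In that fit the median SE over all genes was 2.48 times as large, and 84 genes passed in all, 4 higher and 80 lower. Of the 6, Rbp4 moved the most. Control replicate 1 had the lowest male share and the lowest Rbp4 of the controls, and leaving it out, with no covariate, gave 0.78 for Rbp4 (limma adjusted p = 0.00896). Its part in the move was not tested. Every Klf5-deleted pool had a higher male share than every control pool, so sex and genotype cannot be fully told apart for these genes.

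Outside the 9 genes, 51 of 53 other listed genes of retinoid metabolism and response were measured. Of these 5 rose and 8 fell, where 8.95% of all genes passed as higher and 8.58% as lower. The same shares apply to the counts of each list below at an adjusted p of 0.05 with no covariate. Counts at an unadjusted p under 0.05, here and elsewhere, have no share over all genes beside them. The median difference of the 51 was 0.00, against 0.02 over all genes. Of 11 genes of carriage, uptake and storage, 3 fell by limma and 0 rose. At an unadjusted p under 0.05, 4 were lower, Bco2 among them, and 0 higher. Isx, an intestinal homeobox factor that represses vitamin A uptake genes when retinoic acid is plentiful, had 10.73, 11.03 and 11.10 in the Klf5-deleted arrays, against 11.72, 11.82 and 11.88 in the controls, and fell by 0.85 (SE 0.10, limma adjusted p = 0.00141). Scarb1, a scavenger receptor that takes up carotenoids, fell by 0.28 (SE 0.04), and Dgat1, which can esterify retinol, by 0.23 (SE 0.04). Both of these carotenoid- and ester-handling genes had groups that were apart. The epithelial markers fell in the same arrays, by 0.36 to 1.52, and the 5 intestinal epithelial markers had log2 differences of −2.16 to −0.62. The part of epithelium in the falls of these genes and of Adh1 was not tested. Lrat, the main enzyme of retinol esterification, was at −0.61 (SE 0.30, limma adjusted p = 0.220), with 7.30 in Klf5-deleted replicate 1 below the other 5 arrays. Without that array it was at −0.25 (limma adjusted p = 0.343), and without Klf5-deleted replicate 3 at −0.91 (limma adjusted p = 0.0561). The carotenoid-cleaving genes Bco2 and Bco1 were at −0.28 (SE 0.09) and 0.08 (SE 0.09), and the retinal carrier Rlbp1 at −0.07 (SE 0.07), none past the test.

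Of 21 retinol and retinal oxidoreductases, 4 fell and 1 rose. Adh1, an alcohol dehydrogenase that oxidises retinol and other alcohols, had 7.91, 7.998 and 7.86 in the Klf5-deleted arrays, against 10.18, 10.10 and 9.71 in the controls. Its fall of 2.08 (SE 0.12, limma adjusted p = 6.06e-05) was the largest difference among all the retinoid genes listed here. The gene that rose was Aldh1a7, described above. Rdh11, Dhrs7 and Sdr16c5, of the short-chain dehydrogenase family, fell by 0.24 (SE 0.05), 0.22 (SE 0.05) and 0.21 (SE 0.06). Sdr16c5 was dim, at 4.40 to 4.73 over the 6 arrays, where the array medians were 7.81 to 7.89 and the lowest value 3.51. When single arrays were left out, Rdh11 and Dhrs7 each lost their call in 4 of 6 fits and Sdr16c5 in all 6. Rdh10, the main retinol dehydrogenase of the embryo, did not pass (0.12, SE 0.05), nor did Rdh12 (0.25, SE 0.08), Rdh14 (0.20, SE 0.08) or Adh5 (−0.10, SE 0.05). Rdh12 and Rdh14 had an unadjusted p under 0.05 by limma.

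None of the 3 Cyp26 genes, whose enzymes break down retinoic acid, passed limma's test or had an unadjusted p under 0.05. Cyp26b1 was at 0.20 (SE 0.09, unadjusted p = 0.0505 by limma), Cyp26a1 at 0.09 (SE 0.09) and Cyp26c1 at 0.00 (SE 0.06). Of 7 genes of the nuclear receptors and of delivery to them, 1 rose. Rarb, a retinoic acid receptor that is itself induced by retinoic acid, had 11.23, 11.20 and 11.07 in the Klf5-deleted arrays, against 10.45, 10.39 and 10.65 in the controls. It rose 1.59-fold (log2 difference 0.67, SE 0.08, limma adjusted p = 0.0016), and the groups were apart. Rara (0.03, SE 0.04), Rarg (−0.09, SE 0.04), Rxra (−0.05, SE 0.05) and the lipid-binding protein gene Fabp5 (−0.16, SE 0.08) did not pass.

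Of 11 genes known to respond to retinoic acid, 4 rose and 1 fell, with Rarb and Cyp26a1 counted here again. Over all genes 8.95% passed as higher and 8.58% as lower. In the same arrays 13 of 13 epithelial markers were lower, and 2 of 8 fibroblast markers were higher and 0 lower. The part of these cells in the changes of the responsive genes was not tested. Meis2 and Meis1, homeobox genes induced by retinoic acid in the limb, rose by 0.41 (SE 0.05) and 0.38 (SE 0.07). Hic1, a transcriptional repressor gene, rose by 0.20 (SE 0.04), and its call was lost without control replicate 2 or 3 (limma adjusted p = 0.0638 and 0.0549). Tgm2, the tissue transglutaminase gene, fell by 0.28 (SE 0.06), and its call was lost without control replicate 1 or 2 (limma adjusted p = 0.0566 and 0.0672). Rarres2 (−0.28, SE 0.13), Hoxb1 (0.10, SE 0.06), Stra8 (−0.04, SE 0.04) and Cyp26a1 did not pass. With the male share as covariate 0 of the 13 calls in these lists passed by limma, and 4, Rarb, Meis2, Isx and Adh1, had an unadjusted p under 0.05. The differences were then 0.55 for Rarb, 0.18 for Aldh1a7, −0.98 for Isx and −1.72 for Adh1.

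**Figure D3:**
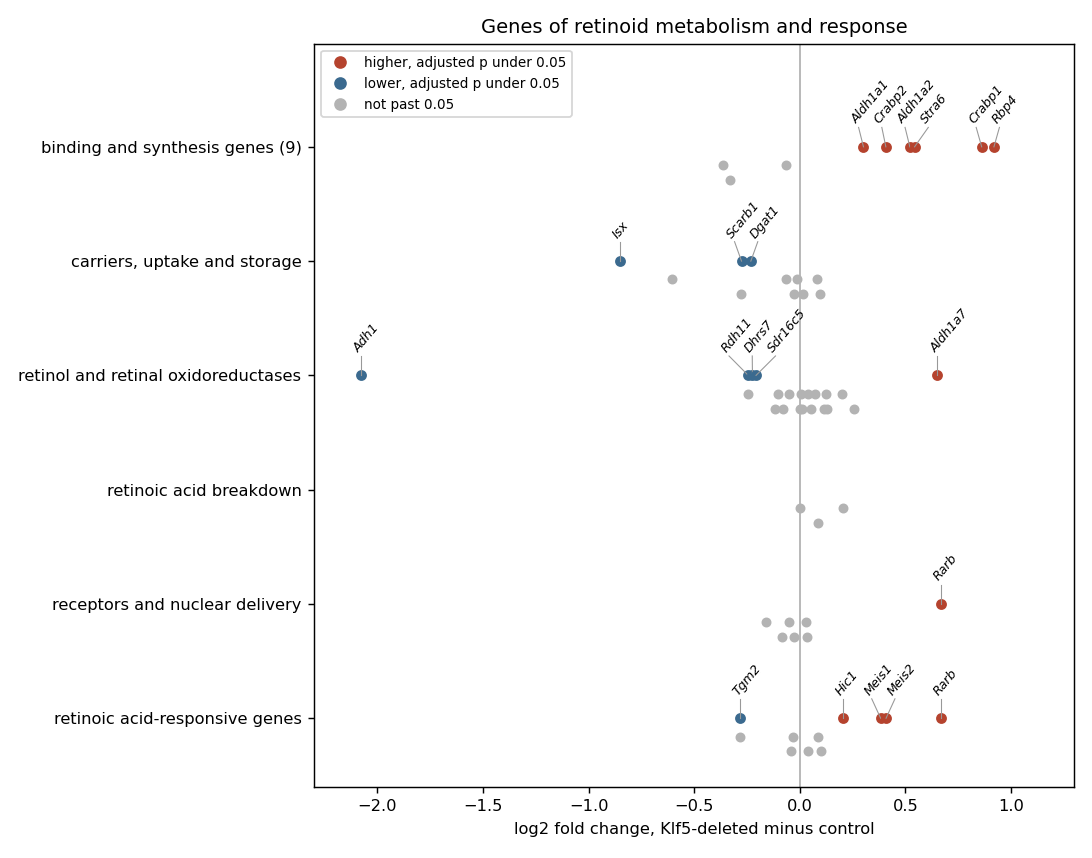
Log2 fold change, Klf5-deleted minus control, for the 9 genes (top row) and the other retinoid genes in 5 lists, 1 point a gene. Genes higher (red) or lower (blue) at an adjusted p of 0.05 are named on the line of their list, and those not past it (grey) lie beneath. Rarb and Cyp26a1 each stand in 2 lists. Adh1, at −2.08, lies farthest from 0.

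The genes most like Rbp4, the member with the largest difference, were picked by Pearson's correlation of log2 values over the 6 arrays, among 19937 other genes. They were Dtna (r = 0.995), Syne1 (r = 0.994), Ankrd46 (r = 0.993), Frmpd1 (r = 0.993) and Meox1 (r = 0.992). The 6 points share the difference between the genotypes and between the sexes of the pools, so r is only a description. Dtna had 9.07, 9.13 and 9.22 in the Klf5-deleted arrays, against 8.38, 8.60 and 8.69 in the controls, and so shared with Rbp4 the low value of control replicate 1.

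**Figure D4:**
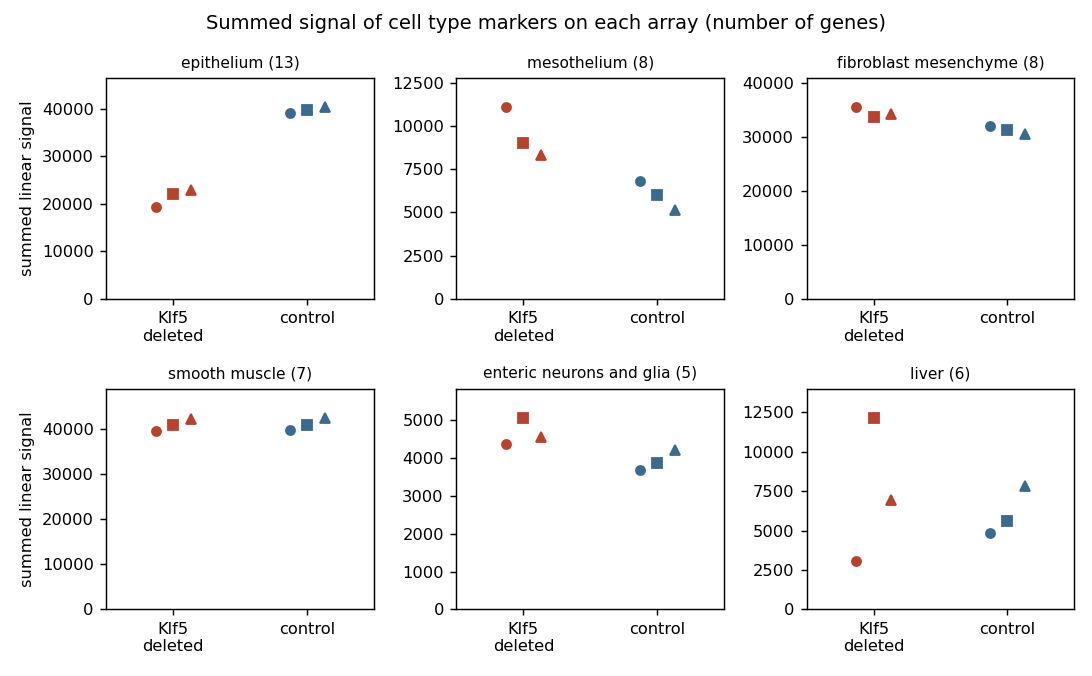
Summed linear signal of the measured markers of 6 cell types on each array, with 3 Klf5-deleted arrays (red) left of 3 control arrays (blue) and marker shape by replicate number. Epithelial markers are lower and mesothelial markers higher in all Klf5-deleted arrays, smooth muscle markers overlap, and the liver sum runs from 3065 to 12157 within the Klf5-deleted arrays, against 4833 to 7809 in the controls.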

How the data were processed

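Each of 6 RNA pools was run on 1 Affymetrix Mouse Gene 1.0 ST array. Per the submitters' processing notes, the authors used RMA and Affymetrix Expression Console 1.1, and the deposited values are on the log2 scale. RMA corrects background, quantile-normalises the arrays and summarises the probes of a transcript, so a shift common to most genes is removed and changes of dim genes are understated. The values ran from 3.51 to 14.3. The sources used here do not name the build behind the array annotation. Arrays have no read depth, and their number limits the precision.

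Of 35557 rows, 21789 carried 1 gene symbol, 1621 several and 12147 none here. Symbols were updated by gene ID to RefSeq GRCm38.p6 (21698 rows matched). The brightest row by mean was used for the 999 genes with more than 1, with no filter on level, which left 19938 genes. All of these were fitted with limma 3.58.1 in R 4.3.3 (lmFit, eBayes), as Klf5-deleted minus control. Benjamini-Hochberg adjustment ran over all of them with a threshold of 0.05. The script was tested on simulated data. Groups came from the sample titles. Rule for named genes: the 9 members, Klf5, in each of 5 retinoid lists the genes past the threshold and up to 4 others with the smallest p, and the 5 genes most correlated with the member that changed most. Of 53 listed retinoid genes, 51 were measured, and the other 2 are not analysed here. Markers covered epithelium, intestinal epithelium, mesothelium, fibroblasts, smooth muscle, enteric neurons and glia, endothelium, leukocytes, liver, pancreas and Y-linked genes. Markers singled out in the text were chosen after their values were seen. Members, lists and alternatives were chosen with earlier results of these data known. Same-numbered arrays of the groups had deviations correlated at −0.14, −0.27 and −0.03, and the main fit did not pair the samples by number. These correlations cannot show whether same-numbered pools shared a litter or a batch. The 17 alternatives were each array left out, the replicate number as a block, 2 scalings, 2 filters on level, 2 variance models, 2 treatments of several rows, a threshold of 0.1 and the male share as covariate.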

Additional observations from a re-analysis of the deposited data

How the results depend on the processing

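With 1 array left out, the log2 differences ran from 0.78 to 1.01 for Rbp4, 0.70 to 1.04 for Crabp1, 0.46 to 0.65 for Stra6, 0.48 to 0.58 for Aldh1a2, 0.37 to 0.46 for Crabp2, 0.24 to 0.36 for Aldh1a1, −0.52 to −0.19 for Rbp2, −0.49 to −0.29 for Aldh1a3 and −0.14 to −0.02 for Dhrs3. Members called higher numbered 5 to 6 and lower 0 to 1. Calls of oxidoreductases ran from 1 to 3 lower and 1 to 2 higher, those of responsive genes from 0 to 1 lower and 3 to 4 higher, and those of carriers from 3 to 4 lower. Among all genes tested, those higher numbered 868 to 1363 and those lower 1132 to 1394, against 1785 and 1711 with all arrays; the low end of both came without control replicate 2, and 1174 and 1143 were higher without Klf5-deleted replicate 3 and control replicate 3. Rlbp1 ran from −0.10 to 0.0007 and Cyp26c1 from −0.0359 to 0.0576.

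With the replicate number as a block, Aldh1a1 was not called (0.30, adjusted p = 0.0964), 900 genes were higher and 1108 lower, and the calls were 2 lower for carriers (Dgat1 lost, adjusted p = 0.0587), 1 lower and 2 higher for oxidoreductases (Dhrs7, Rdh11 and Sdr16c5 lost, 0.0561, 0.0691 and 0.112; Rdh12 gained, 0.0441), and 0 lower and 3 higher for responsive genes (Tgm2 and Hic1 lost, 0.0682 and 0.0705); no array correlated best with the array of its own number, and the block changed no other member's call. Centring on array medians gave 0.28 for Aldh1a1 (not called) and −0.38 for Aldh1a3 (adjusted p = 0.0342), so 1 member was lower, and moved the share of called genes that were higher to 40.8%, against 51.1%. Aldh1a3 also passed, as 1 member lower, with the lowest 25% or 50% of genes left out (−0.36, adjusted p = 0.0484 and 0.0315), with an intensity trend and robust variance (adjusted p = 0.0359) and at a threshold of 0.1. With the lowest 50% left out, Crabp2 and Rbp2 were among the genes removed, so 5 members were higher; Sdr16c5 was removed by both filters. Oxidoreductases called higher numbered 2 with array weights and at the threshold of 0.1. Cyp26c1 was at −0.0205 with quantile normalization and −0.019 with centring.

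With the male share as covariate, 0 members, 0 carriers, 0 oxidoreductases, 0 receptor genes and 0 responsive genes passed in either direction by limma (0, 3, 4, 1 and 3 at an unadjusted p under 0.05), and 4 genes were higher and 80 lower in the table. Rbp4 was at 0.36, Aldh1a1 0.38, Aldh1a2 0.43, Crabp1 0.86, Crabp2 0.26 and Stra6 0.44. The sign turned for Rbp2 (0.0473), Dhrs3 (0.0236), Sdr16c5 (0.0039), Rdh14 (−0.20), Fabp5 (0.13), Rxra (0.0599), Rarres2 (0.0387) and Stra8 (0.062). The larger SE of that fit is given above; the causes of the other changes were not tested.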

Other observations

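Of 7 smooth muscle, 5 endothelial, 4 leukocyte and 4 pancreatic markers, 0 passed by limma (adjusted p of 0.05). At an unadjusted p under 0.05, 2 smooth muscle genes (Tagln and Des) were lower, 1 endothelial gene (Kdr) was higher, and 0 leukocyte and 0 pancreatic genes passed. The 4 lists had median log2 differences of −0.03, 0.15, −0.12 and 0.06. Summed linear signals overlapped between Klf5-deleted and control arrays in each of these lists: 39453 to 42121 against 39815 to 42409 for smooth muscle, 7994 to 9784 against 7780 to 8219 for endothelium, 1804 to 2297 against 2141 to 2436 for leukocytes, and 660 to 1263 against 725 to 769 for pancreas. Klf5-deleted replicate 1 had the highest pancreatic sum and the lowest liver sum of the 6 arrays.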
